A study of Mus musculus with 6 samples.

Results

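Hepatocytes of adult mice fed DDC were compared with hepatocytes of fetal mice at embryonic day 18 (E18), gene by gene, to ask which genes an injured adult liver cell does not share with a fetal one. DDC is a porphyrin-raising compound that injures bile ducts and hepatocytes. These are 4 of the 6 samples of the series. All 6 are hepatocyte preparations from mice of the FVB strain, read as polyadenylated RNA with a stranded kit. The DDC fed group has 2 samples from adults fed the compound for 4 weeks. The E18 group has 2 samples, each pooled from about 8 embryos. The other 2 samples are adults on normal chow, which are used here for the shared spread and as values beside the others. No allele or transgene is named for any group. The labels used here give neither the sex nor the exact age of the adults, nor whether the adult samples came from separate animals, so p-values measure only the spread between these samples. Of 48432 genes listed, the comparison covers the 14235 that passed a filter on low values and were not left out as failed estimates.

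Late fetal mouse liver is still a blood-forming organ. Its hepatocytes divide, secrete plasma proteins and make fetal growth factors, while most enzymes of drug, amino acid and bile acid metabolism are switched on around and after birth. Adult hepatocytes divide little until they are injured. Under DDC, inhibition of ferrochelatase leads to porphyrin build-up, an oxidative and electrophilic stress answered by the factor NRF2, and keratin-rich inclusions called Mallory-Denk bodies, and ducts multiply in the tissue. Some fetal genes can be taken up again in injured liver, which is why the 2 states are often set beside each other.

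Values are TPM, which count transcripts after correction for length and scale each column to a sum of 1000000, so a value is a share of the RNA and not an amount per cell. Differences are log2(TPM + 1) in DDC fed minus E18 with their standard error from limma, which understates the change of low genes. A gene is called higher in a group where its adjusted p is under 0.05. By that rule 9193 genes differed, which is 64.6% of those tested. Of these, 2523 (17.7%) were higher in DDC fed and 6670 (46.9%) higher in E18. At least 2-fold differences among the called genes numbered 1814 towards DDC fed and 4939 towards E18, and at least 8-fold ones 345 and 734. For 90% of genes the 2 DDC fed samples both lay on the same side of both E18 samples. The count for a list below is to be read against these shares. The median log2 fold change of all genes was −0.54, and it was −0.09 after the columns were rescaled by the median ratio of genes, which turned the split into 3915 genes (27.5%) higher in DDC fed and 4889 (34.3%) higher in E18. Small differences towards E18 therefore depend on the scale, and the rescaled count, or the genes that lose the call, is given where a printed count differs by more than 1.5 times. Below, pairs of values run from the DDC fed samples 0 and 1 to the E18 samples 0 and 1, and a value in brackets after them is the log2 fold change with its standard error. Counts of a list cover its tested members. A gene given with a fold change passed the test unless its text says otherwise.

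**Figure D1:**
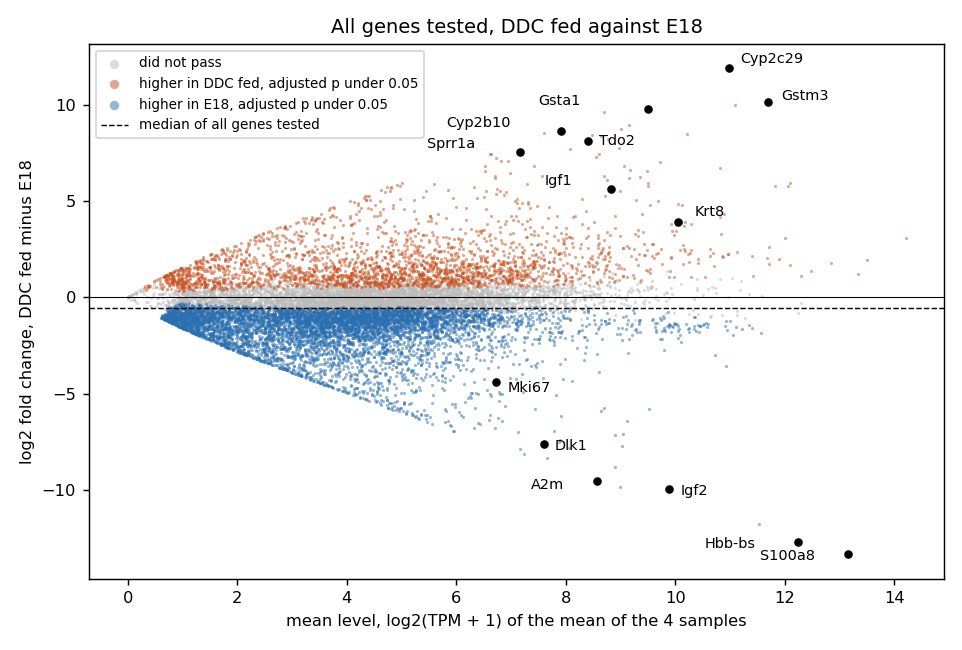
Log2 fold change of DDC fed minus E18 (vertical) against the mean level of the 4 samples (horizontal, log2 of TPM + 1) for the 14235 genes tested. Orange points were higher in DDC fed (2523) and blue points higher in E18 (6670), the dashed line is the median of all genes at −0.54, and black points are named genes such as Cyp2c29 at the top and S100a8 at the bottom.

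The compared samples of a group were close to each other, with a median absolute log2 difference over genes of 0.125 between the DDC fed samples and 0.167 between the E18 samples. It was wider, 0.374, between the normal fed samples, which enter the shared spread behind every standard error and p-value. Genes at 1 TPM or more numbered 12204 and 12322 in DDC fed and 13983 and 13748 in E18. The number of reads behind a value is unknown. Of 12 hepatocyte markers, 8 were above 0 in all 4 samples. Apoa2, an apolipoprotein of hepatocytes, had 18253 and 18245 TPM against 5643 and 3982 TPM in DDC fed against E18, and Asgr1, a hepatocyte receptor, had 730.1 and 724 TPM against 173 and 122 TPM. Alb and Trf, which encode albumin and transferrin, are listed at 0 in all 6 columns, so a 0 in this table can be a failed estimate. A further 80 genes were left out because they are listed at 0 in both samples of a group and at 100 TPM or more elsewhere, 53 of them at 0 in DDC fed or in E18. Ubd, for example, which encodes an ubiquitin-like protein of Mallory-Denk bodies, had 509.5 and 631 TPM in DDC fed and is listed at 0 in E18. The 2 E18 samples differed from each other in genes of other cells. All erythroid genes listed summed to 15740 and 28430 TPM in E18 samples 0 and 1, and Ctrb1, a digestive enzyme of the pancreas, was at 298 and 25.8 TPM.

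The largest differences towards DDC fed were enzymes of foreign-compound metabolism, and the largest towards E18 were genes of blood cells and of fetal growth. The 10 protein-coding genes with the highest fold change, among those at 10 TPM or more in DDC fed and above 0 in both groups, were Cyp2c29, Gstm3, Cyp2a5, Gsta1, Cyp1a2, Mettl7b, Cyp2a4, Cyp2b10, Nat8f2 and Azgp1. Cyp2c29, a drug-metabolising cytochrome P450 at chr19:39269405-39330713 (GRCm38), had 4214 and 3905 TPM in the DDC fed samples and 0.0792 and 0.0747 TPM in the E18 samples (log2 fold change 11.88 ± 0.29, adjusted p = 2.8e-06). Gstm3, a glutathione transferase at chr3:107963696-107969283, had 7032 and 6147 TPM in the DDC fed samples and 6.43 and 3.47 TPM in the E18 samples (log2 fold change 10.16 ± 0.41, adjusted p = 3.9e-06). Both DDC fed samples were far above both E18 samples in each. The normal fed samples separate these genes: Cyp2c29 had 2114 and 1232 TPM there, whereas Gstm3 had 94.4 and 43.6 TPM. Several of these enzymes have near-identical neighbours (Cyp2a4 and Cyp2a5, the Cyp2c, Gsta and Gstm genes, Saa1 and Saa2, the Mup genes and the globins), and how reads were shared between such copies is not known here, so each is uncertain as a single gene.

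In the other direction the 10 were S100a8, Hbb-bs, Hba-a1, Igf2, Elane, A2m, Ppbp, Prtn3, Ifitm6 and Hsd3b1. S100a8, a calcium-binding protein of neutrophils, had 0.554 and 1.02 TPM in the DDC fed samples and 16404 and 19942 TPM in the E18 samples (log2 fold change −13.32 ± 0.22, adjusted p = 2.5e-06). Igf2, the fetal insulin-like growth factor at chr7:142650766-142666816, had 0.888 and 0.862 TPM in the DDC fed samples and 2290.3 and 1501 TPM in the E18 samples (log2 fold change −9.95 ± 0.25, adjusted p = 2.8e-06). Of the 10, S100a8, Hbb-bs, Hba-a1, Elane, Ppbp and Prtn3 are known products of red cells, granulocytes or platelets. All 10 were also at least 8-fold above normal fed. Genes left out for a 0 are not ranked, and S100a9, the partner of S100a8, is one of them, at 1.20 and 1.01 TPM against 29057 and 33644 TPM and listed at 0 in normal fed. A2m, a protease inhibitor that the liver makes before birth, had 0.0063 and 0.0303 TPM against 924 and 587 TPM, and the normal fed samples had 0.0437 and 0.006 TPM.

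**Figure D2:**
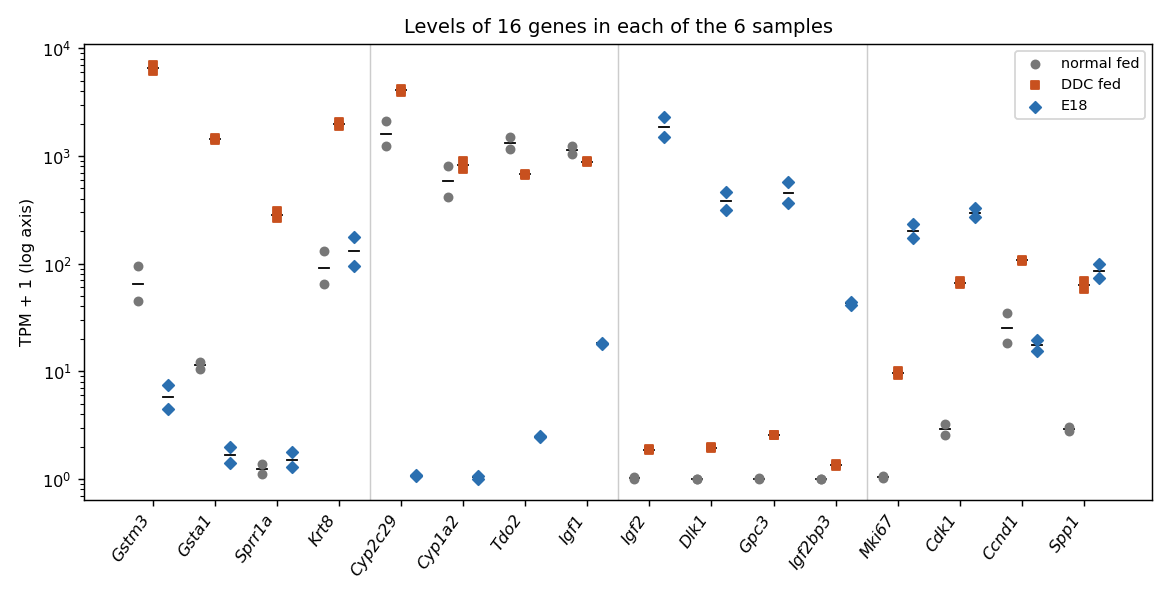
TPM + 1 (log axis) of 16 named genes in each of the 6 samples, with normal fed in grey, DDC fed in orange and E18 in blue. Short bars are geometric means of TPM + 1 in each group. Gstm3, Gsta1, Sprr1a and Krt8 are highest in the DDC fed samples, Cyp2c29, Tdo2 and Igf1 are high in both adult groups, Igf2, Dlk1 and Mki67 are highest in E18, and the DDC fed and E18 samples lie close for Spp1.

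The genes that stood above both normal fed and E18 in DDC fed samples come first. The 8 with the highest fold change over E18 that were also at least 8-fold above normal fed were Gstm3, Gsta1, Cyp2a4, Cyp2b10, Gsta2, Sprr1a, Ly6d and Saa2. Gsta1, a glutathione transferase, had 1413 and 1478 TPM in the DDC fed samples and 0.973 and 0.4 TPM in the E18 samples (log2 fold change 9.76 ± 0.23, adjusted p = 2.8e-06), with 11.2 and 9.60 TPM in normal fed. Sprr1a, a cross-linked protein of squamous and stressed epithelia, had 265 and 305 TPM in the DDC fed samples and 0.777 and 0.278 TPM in the E18 samples (log2 fold change 7.56 ± 0.24, adjusted p = 2.8e-06), with 0.117 and 0.375 TPM in normal fed. Ly6d, a surface protein of epithelial and lymphoid cells, had 781 and 709.6 TPM in the DDC fed samples and 2.57 and 5.35 TPM in the E18 samples (log2 fold change 7.29 ± 0.30, adjusted p = 4.0e-06), with 0.593 and 0.791 TPM in normal fed. In all 3 the DDC fed samples lay far above the other 4. E18 was below normal fed for Gsta1 and above it for Ly6d, and the 2 overlapped for Sprr1a.

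Genes of glutathione and the NRF2 response were mostly higher in DDC fed. NRF2 is a transcription factor that is released when electrophiles modify its partner KEAP1 and that switches on enzymes of conjugation, export and thiol supply. Of 50 tested genes of this list, 36 were higher in DDC fed, 7 were higher in E18 and 7 did not pass, with a median log2 fold change of 1.88 against −0.54 for all genes. Among 21 glutathione transferases the split was 17, 2 and 2. Among 29 other targets it was 19, 5 and 5, with 3 higher in E18 after median-ratio scaling. Gstm1, a neighbour of Gstm3, was left out of the test because it is listed at 0 in both DDC fed samples. It had 1912 and 1017 TPM in normal fed and 265.5 and 211 TPM in E18. How reads were shared between Gstm1 and Gstm3 is not known here. Leaving out each of the 4 compared samples in turn left 30 to 31 higher in DDC fed.

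Within the list the steps of the pathway did not share a direction. Gsta2, a conjugation enzyme, had 857 and 882 TPM against 2.60 and 1.43 TPM (8.20 ± 0.26). Cbr3, a carbonyl reductase, had 46.5 and 40.0 TPM against 0.762 and 0.414 TPM. Nqo1, the quinone reductase often used as an NRF2 readout, had 64.5 and 66.4 TPM in the DDC fed samples and 5.25 and 4.82 TPM in the E18 samples (log2 fold change 3.46 ± 0.19, adjusted p = 1.1e-05). Sqstm1, the autophagy adaptor that also binds KEAP1, had 1004 and 938 TPM in the DDC fed samples and 180.4 and 150.4 TPM in the E18 samples (log2 fold change 2.55 ± 0.26, adjusted p = 1.7e-04). The 7 genes higher in E18 included G6pdx, which feeds NADPH from glucose, at 4.84 and 5.75 TPM against 74.7 and 85.1 TPM (−3.69 ± 0.24). Others were Mgst2 at 4.69 and 5.11 TPM against 94.0 and 84.3 TPM, Akr1b7 at 7.63 and 8.55 TPM against 155 and 92.7 TPM and the exporter Abcc1 at 1.63 and 1.61 TPM against 7.64 and 7.85 TPM. Hmox1, the heme oxygenase, was also higher in E18 at 129 and 168 TPM against 267 and 361 TPM, but it did not pass after the median-ratio rescaling (adjusted p = 0.065) or without DDC fed sample 0 or E18 sample 1 (adjusted p up to 0.081), and normal fed samples had 10.99 and 9.14 TPM. Both groups lay above normal fed for Hmox1.

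Promoter letters are shown here for 3 of the called members, because most of the list was higher in the same group and NRF2 is known to bind antioxidant response elements. The windows run from 250 bases before to 50 bases after the RefSeq start (GRCm38.p6), 5′ to 3′ on the gene's strand, and capitals mark TGACNNNGC on either strand.
Srxn1 (chr2:152105274-152105573, plus strand): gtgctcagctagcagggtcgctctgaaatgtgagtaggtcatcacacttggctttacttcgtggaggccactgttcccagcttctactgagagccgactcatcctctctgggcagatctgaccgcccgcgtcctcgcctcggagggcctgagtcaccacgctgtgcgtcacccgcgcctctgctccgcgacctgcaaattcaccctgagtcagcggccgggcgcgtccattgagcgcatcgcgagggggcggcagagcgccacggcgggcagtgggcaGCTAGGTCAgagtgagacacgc
Ugdh (chr5:65435793-65436092, minus strand): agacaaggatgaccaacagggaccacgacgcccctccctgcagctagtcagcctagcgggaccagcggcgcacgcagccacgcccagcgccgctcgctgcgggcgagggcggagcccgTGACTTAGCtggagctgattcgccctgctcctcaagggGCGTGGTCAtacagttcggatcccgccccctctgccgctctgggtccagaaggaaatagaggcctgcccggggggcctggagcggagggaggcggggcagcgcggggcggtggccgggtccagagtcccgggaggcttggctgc
Mgst1 (chr6:138140277-138140576, plus strand): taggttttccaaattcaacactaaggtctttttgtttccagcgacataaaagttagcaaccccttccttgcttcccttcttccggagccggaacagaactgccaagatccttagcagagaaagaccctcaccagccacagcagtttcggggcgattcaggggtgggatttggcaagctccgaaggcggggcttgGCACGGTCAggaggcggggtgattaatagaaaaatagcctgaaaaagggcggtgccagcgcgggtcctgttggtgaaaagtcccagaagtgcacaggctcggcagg
They were taken from the members higher in DDC fed, as the 3 with the smallest adjusted p whose window holds the letters. Of 43 tested members with a window, whatever their direction, 13 held TGACNNNGC (30.2%), so 30 members had no match in these 300 bases. Among the 10641 tested genes with a window the share was 16.8%. Srxn1, which restores oxidised peroxiredoxins, had 373 and 312 TPM against 13.03 and 10.7 TPM (4.74 ± 0.23). Ugdh, which makes the sugar donor of glucuronidation, had 490.3 and 423 TPM against 57.1 and 50.6 TPM (3.06 ± 0.30). Mgst1, a microsomal glutathione transferase, had 7589 and 7076 TPM against 1040.5 and 698 TPM (3.10 ± 0.36).

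Keratins of simple epithelia, the core of Mallory-Denk bodies, were higher in DDC fed. Krt8 had 2076 and 1899.7 TPM in the DDC fed samples and 177 and 94.1 TPM in the E18 samples (log2 fold change 3.93 ± 0.42, adjusted p = 2.4e-04). Its partner Krt18 had 1820.1 and 1786 TPM in the DDC fed samples and 262 and 135 TPM in the E18 samples (log2 fold change 3.25 ± 0.33, adjusted p = 1.8e-04). Normal fed samples had 129.8 and 63.0 TPM of Krt8. Hspb1, a small heat shock protein, had 144 and 207 TPM against 4.08 and 3.20 TPM (5.23 ± 0.27). Of 11 keratin and inclusion genes 6 were higher in DDC fed, 3 higher in E18 and 2 did not pass. The 3 were Krt7 and Krt19, keratins of bile duct cells, and Krt20. Krt19 had 0.0909 and 0.228 TPM against 10.9 and 5.66 TPM. The E18 pools also held RNA of pancreas and intestine genes, and which cells carried these 3 keratins was not tested.

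Other genes of injured epithelium were split, with 11 of 24 higher in DDC fed, 9 higher in E18 and 4 not passing. Slpi, a secreted protease inhibitor, had 859 and 723 TPM against 65.9 and 81.6 TPM (3.41 ± 0.21). Higher in E18 were Anxa1 at 6.13 and 7.48 TPM against 1004 and 1086 TPM, Cd24a at 5.13 and 5.97 TPM against 754 and 1139 TPM, Plaur at 3.47 and 5.54 TPM against 92.3 and 92.8 TPM and Anxa3 at 8.82 and 10.6 TPM against 109 and 121 TPM, which are also made by blood cells. Lcn2, an iron-scavenger binding protein made by injured hepatocytes and by neutrophils, was at 4173 and 3342 TPM against 1509.9 and 1906 TPM (1.138 ± 0.29), but with each of the 4 samples left out in turn its adjusted p reached 0.097. Normal fed samples had 8.48 and 5.23 TPM of it.

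A few genes linked to injury did not pass the test between the groups. Spp1, osteopontin, had 56.5 and 67.6 TPM against 99.2 and 71.8 TPM, a difference of −0.44 ± 0.23 with a 95% interval of −0.99 to 0.10 and an adjusted p of 0.13. Its sign turned to 0.0612 with median-ratio scaling, and it passed towards E18 with the exon-length trend removed (−0.729, adjusted p = 0.0345). Normal fed samples had 2.01 and 1.81 TPM. Lgals1, a galectin, had 199.8 and 214 TPM against 210.4 and 254 TPM (interval −0.62 to 0.30). Anxa2 had 282 and 297 TPM against 264 and 248 TPM (interval −0.61 to 0.96). S100a11 had 372 and 398 TPM against 312 and 380.3 TPM (interval −0.32 to 0.63). With median-ratio scaling S100a11 passed towards DDC fed (0.67, adjusted p = 0.013), and the sign of Lgals1 turned to 0.35. With quantile normalisation Lgals1 passed towards E18 (−0.544), and the signs of Anxa2 and S100a11 turned to −0.218 and −0.305. These 3 were chosen after their values were seen. The intervals do not show that the groups are alike, since they allow differences of the size printed.

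Cytochromes P450 of drug and steroid metabolism were mostly higher in DDC fed. These heme enzymes oxidise drugs, steroids and fatty acids in the endoplasmic reticulum, and most appear after birth. Of 38 tested, 31 were higher in DDC fed, 6 higher in E18 and 1 did not pass, with a median log2 fold change of 3.14. The summed level of these 38 was 23130 and 19060 TPM in DDC fed, 25760 and 15330 TPM in normal fed and 3051 and 1779 TPM in E18. Cyp3a11 is not in it, since it had 3695 and 4181 TPM in normal fed and is listed at 0 in DDC fed. The 2 adult groups overlapped in this sum, and both E18 samples were below them.

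Members differed in how DDC fed stood to normal fed. Cyp1a2 had 899 and 752 TPM against 0.074 and 0 TPM (9.63 ± 0.33) with 811 and 415 TPM in normal fed. Cyp2b10, a usual readout of the receptor CAR, had 524 and 439.6 TPM against 0.17 and 0.258 TPM (8.63 ± 0.34) with 33.6 and 15.8 TPM in normal fed. Cyp2e1, which oxidises ethanol, was near the E18 level in DDC fed, at 727 and 903 TPM against 478 and 280.2 TPM (1.143 ± 0.42), with 8193 and 4389 TPM in normal fed. Its difference from E18 did not pass in any fit that left out 1 of the 4 samples (adjusted p up to 0.29).

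The 6 P450 genes higher in E18 were Cyp2c69, Cyp2c40, Cyp2c68, Cyp3a16, Cyp3a41a and Cyp3a44. Cyp3a16, known as a fetal form of the family, had 1.38 and 1.25 TPM in the DDC fed samples and 237 and 144 TPM in the E18 samples (log2 fold change −6.33 ± 0.28, adjusted p = 5.0e-06), and normal fed samples had 0.281 and 0.497 TPM. Cyp3a25, an adult form at 638 and 577 TPM against 21.6 and 12.6 TPM (5.12 ± 0.32), went the other way. Cyp2c69 had 0.25 and 0.157 TPM against 349.6 and 216 TPM (−7.84 ± 0.26). Cyp2c40 had 0.77 and 0.633 TPM against 223 and 117 TPM (−6.58 ± 0.32). So 3 of the 6 family 3 genes tested were higher in each direction, and DDC fed samples had low levels of each of the 3 that were high in E18.

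Bile acid genes were higher in DDC fed in 26 of 33 cases, with 1 higher in E18 and 6 not passing. Transport was nearly all on that side, with 15 of 17 higher in DDC fed. Slco1a4, an uptake carrier for organic anions, had 206 and 184 TPM against 0.11 and 0.11 TPM (7.46 ± 0.38). Abcg5, a sterol exporter, had 76.7 and 65.9 TPM against 1.59 and 0.87 TPM (5.03 ± 0.31). Among 16 genes of synthesis and conjugation 11 were higher in DDC fed. Baat, which joins bile acids to amino acids, had 247 and 276 TPM against 8.86 and 5.72 TPM (5.01 ± 0.27). Cyp8b1, which makes cholic acid, was the gene higher in E18, at 6.24 and 7.70 TPM against 85.5 and 62.7 TPM (−3.23 ± 0.23), and normal fed samples had 202 and 173 TPM. Cyp7a1, the rate-limiting enzyme of bile acid synthesis, had 55.8 and 58.4 TPM against 60.5 and 24.4 TPM (0.55 ± 0.54, adjusted p = 0.40), and without E18 sample 1 the sign turned to −0.08. The 2 DDC fed values lay between those of the E18 samples, so no direction is given for it.

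Urea cycle and amino acid breakdown showed a similar split, with 38 of 45 genes higher in DDC fed, 1 higher in E18 and 6 not passing, and a median of 2.21. Tdo2, which opens tryptophan for breakdown, had 664 and 684 TPM in the DDC fed samples and 1.52 and 1.44 TPM in the E18 samples (log2 fold change 8.09 ± 0.21, adjusted p = 2.8e-06), with 1495 and 1171 TPM in normal fed. Gpt, alanine aminotransferase, had 395 and 352 TPM against 3.92 and 3.51 TPM (6.31 ± 0.29). Sds, serine dehydratase, had 213 and 255 TPM against 5.15 and 3.55 TPM (5.47 ± 0.31). Normal fed samples had 350.4 and 196 TPM of Gpt and 376 and 217 TPM of Sds, so both adult groups stood above E18 for these genes. Cps1, the entry enzyme of the urea cycle, had 1391 and 1232 TPM against 650.3 and 391 TPM (1.37 ± 0.57) and did not pass (adjusted p = 0.072), but passed with median-ratio scaling (1.88, adjusted p = 0.019) and without either normal fed sample. Glul, glutamine synthetase of the cells around the central vein, was the member higher in E18, at 81.1 and 75.0 TPM against 275 and 219 TPM (−1.64 ± 0.36), and its adjusted p reached 0.083 with 1 of the E18 samples left out.

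Plasma proteins of the acute phase, complement and clotting were higher in DDC fed in 39 of 55 cases, with 2 higher in E18 and 14 not passing. That count was 23 without E18 sample 1 and 35 at most with any other of the 4 left out. Saa1, a serum amyloid protein, had 519 and 549 TPM against 2.42 and 0.971 TPM (7.69 ± 0.29). Its neighbour Saa2 had 229 and 257 TPM against 0.889 and 0.731 TPM (7.07 ± 0.20). Orm1, an acute phase glycoprotein, had 3516 and 3652 TPM against 30.8 and 35.5 TPM. C9, the last complement component, had 884 and 817 TPM against 12.5 and 10.2 TPM (6.11 ± 0.24). None of 34 tested complement and clotting genes passed towards E18, and 26 passed towards DDC fed. A further 7 members of the whole list, 6 of them acute phase, were left out for a 0 and are in no count. Hp, Hpx and C3 are listed at 0 in DDC fed, and C3 had 2335 and 1478 TPM in E18. Orm2, Fga and Fgb are listed at 0 in E18, and Fga had 4024 and 3767 TPM in DDC fed. Serpina3m is listed at 0 in normal fed. The 2 acute phase genes higher in E18 were A2m, given above, and Apcs, serum amyloid P, at 416 and 487 TPM against 1344 and 789 TPM (−1.19 ± 0.32), which did not pass with median-ratio scaling (adjusted p = 0.18), nor without E18 sample 0 or either DDC fed sample (up to 0.11).

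Genes of the insulin-like growth factor axis were mixed, among ligands and among receptors too. Of 24 genes, 4 were higher in DDC fed, 14 higher in E18 and 6 did not pass. With median-ratio scaling 7 were higher in DDC fed. The 4 were Igf1, its carrier Igfals, the growth hormone receptor Ghr and Igfbp4, which lost the call without E18 sample 1 (adjusted p = 0.070). Igf1, the hormone the adult liver makes under growth hormone, had 883 and 888 TPM in the DDC fed samples and 16.9 and 17.4 TPM in the E18 samples (log2 fold change 5.61 ± 0.21, adjusted p = 3.3e-06), and normal fed samples had 1232 and 1046 TPM. Ghr had 233 and 238 TPM in the DDC fed samples and 78.7 and 44.7 TPM in the E18 samples (log2 fold change 1.97 ± 0.29, adjusted p = 0.0011). Igf1r, the receptor of both ligands, was low in adults, at 0.284 and 0.271 TPM against 12.7 and 15.4 TPM (−3.55 ± 0.15). Grb10, an inhibitor of insulin and IGF receptors, had 1.28 and 1.44 TPM against 632 and 423 TPM (−7.78 ± 0.41). The ligand Igf2 was at 0.888 and 0.862 TPM in DDC fed and at 0.0092 and 0.0369 TPM in normal fed.

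**Figure D3:**
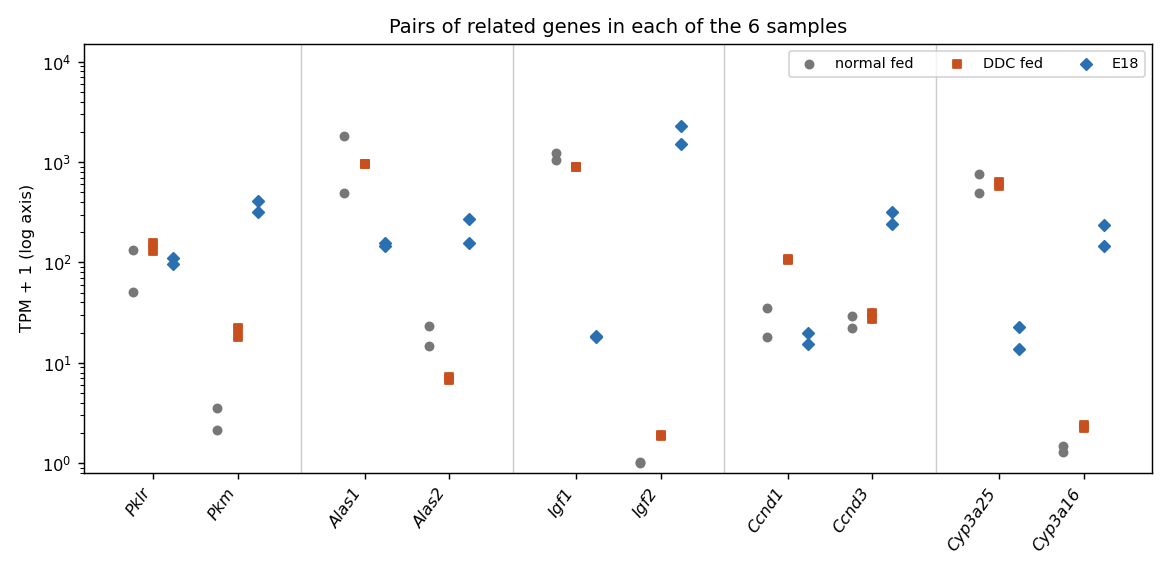
TPM + 1 (log axis) in each of the 6 samples for 5 pairs of related genes, chosen after their values were seen, with normal fed in grey, DDC fed in orange and E18 in blue. Igf1, Alas1 and Cyp3a25 are high in both adult groups and Igf2, Alas2 and Cyp3a16 are highest in E18, while the 3 groups lie close for Pklr.

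Fetal liver genes were mostly far lower in DDC fed hepatocytes than in E18. Of 36 tested, 25 were higher in E18, 9 higher in DDC fed and 2 did not pass, with a median log2 fold change of −2.70. Of the 25, 4 are listed at 0 in both DDC fed samples, where a 0 can be a failed estimate. Dlk1, a surface protein of hepatoblasts, had 0.965 and 0.935 TPM in the DDC fed samples and 459 and 310.5 TPM in the E18 samples (log2 fold change −7.60 ± 0.24, adjusted p = 2.8e-06). Gpc3, a cell surface proteoglycan of fetal liver, had 1.55 and 1.55 TPM in the DDC fed samples and 568 and 366 TPM in the E18 samples (log2 fold change −7.48 ± 0.25, adjusted p = 2.8e-06). Normal fed samples had 0.0087 and 0 TPM of Dlk1 and 0.0196 and 0 TPM of Gpc3, so DDC fed stood above normal fed in both and far below E18. The RNA-binding protein Igf2bp3, which binds Igf2 mRNA, had 0.373 and 0.31 TPM against 43.4 and 40.1 TPM (−4.99 ± 0.16). The chromatin protein Hmga2 had 0.134 and 0.0764 TPM against 8.90 and 7.70 TPM (−3.07 ± 0.13). Bex4 had 0.69 and 0.954 TPM against 180.1 and 149.6 TPM (−6.51 ± 0.20). Lin28b, which blocks let-7 maturation, is listed at 0 in the DDC fed and normal fed samples and had 4.998 and 5.80 TPM in E18.

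The 9 fetal genes higher in DDC fed need their values beside them. H19, an imprinted RNA next to Igf2, had 41.0 and 53.3 TPM in DDC fed and 0.114 and 0.0446 TPM in normal fed, and Afp, alpha-fetoprotein, had 3.17 and 3.26 TPM in DDC fed. Both are listed at 0 in E18, where fetal liver is known to make them, so neither is read as a difference from E18. Tmprss6, a protease that restrains hepcidin, had 413 and 337 TPM against 84.6 and 54.2 TPM (2.44 ± 0.34). Ddr1, a collagen receptor, had 24.9 and 21.01 TPM against 6.55 and 3.61 TPM (2.02 ± 0.28). The other 5 were Fst, Zbtb20, Trim6, Prox1 and Tbx3, and without E18 sample 1 the list had 5 genes higher in DDC fed rather than 9. Spink1, a trypsin inhibitor, had 117 and 119 TPM against 266 and 161 TPM with 0.19 and 0.286 TPM in normal fed. Meg3, a maternally expressed RNA, had 28.9 and 48.3 TPM against 549 and 319 TPM with 1.73 and 3.22 TPM in normal fed. Both were higher in E18, although Spink1 did not pass with median-ratio scaling (adjusted p = 0.35) or without E18 sample 0 or either DDC fed sample (up to 0.16).

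Cell division genes were higher in E18 almost throughout. Of 46 genes of G2 and mitosis, 45 were higher in E18 and 1, Spc24, was higher in DDC fed. The median log2 fold change was −2.97, and the summed level was 462 and 522 TPM in DDC fed, 3279 and 4252 TPM in E18 and 34.7 and 40.0 TPM in normal fed. Mki67, a chromosome coat protein of dividing cells at chr7:135689784-135716361, had 8.33 and 9.02 TPM in the DDC fed samples and 171 and 233 TPM in the E18 samples (log2 fold change −4.37 ± 0.22, adjusted p = 8.8e-06), and normal fed samples had 0.0614 and 0.0242 TPM. Cdk1, the mitotic kinase, had 63.5 and 67.6 TPM in the DDC fed samples and 268 and 328 TPM in the E18 samples (log2 fold change −2.16 ± 0.22, adjusted p = 1.7e-04), with 1.56 and 2.25 TPM in normal fed. DDC fed samples therefore lay between normal fed and E18 for both. Spc24, a kinetochore protein, had 56.5 and 53.2 TPM against 31.8 and 40.7 TPM (0.60 ± 0.20), and with 1 of the 4 samples left out its adjusted p reached 0.20.

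Promoters of mitotic genes are shown because nearly the whole list was higher in the same group and because such genes are known for CHR and CCAAT elements. Windows, build and strand are as above, and capitals mark TTTGAA and CCAAT on either strand.
Bub1b (chr2:118597961-118598260, plus strand): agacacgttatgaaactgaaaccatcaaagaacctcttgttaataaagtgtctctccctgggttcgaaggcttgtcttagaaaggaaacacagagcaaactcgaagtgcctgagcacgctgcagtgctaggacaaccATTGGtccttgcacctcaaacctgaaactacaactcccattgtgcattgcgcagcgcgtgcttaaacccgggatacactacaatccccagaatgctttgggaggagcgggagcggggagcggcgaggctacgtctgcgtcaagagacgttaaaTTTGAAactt
Mki67 (chr7:135716330-135716629, minus strand): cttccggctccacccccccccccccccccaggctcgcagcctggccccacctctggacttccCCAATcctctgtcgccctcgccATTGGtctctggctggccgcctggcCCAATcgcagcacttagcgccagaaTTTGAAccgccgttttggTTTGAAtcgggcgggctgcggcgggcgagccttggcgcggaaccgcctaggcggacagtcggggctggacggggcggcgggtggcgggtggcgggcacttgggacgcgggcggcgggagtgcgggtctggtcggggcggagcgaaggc
Kif11 (chr19:37376132-37376431, plus strand): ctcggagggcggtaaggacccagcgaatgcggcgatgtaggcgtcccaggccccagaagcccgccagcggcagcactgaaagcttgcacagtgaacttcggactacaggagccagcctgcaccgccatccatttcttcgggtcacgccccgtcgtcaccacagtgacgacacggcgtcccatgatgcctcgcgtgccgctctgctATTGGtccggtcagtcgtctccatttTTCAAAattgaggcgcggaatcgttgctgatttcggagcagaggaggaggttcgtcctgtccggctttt
They were taken from the members higher in E18, as the 3 with the smallest adjusted p that hold both. TTTGAA was in 28 of 38 windows (73.7%), against 14.8% of all tested genes with a window, and CCAAT was also in 28 of 38, against 42.8%. In G1/S genes TTTGAA was in 16.7% and CCAAT in 59.5% of 42 windows. In P450 genes, which went the other way, TTTGAA was in 45.5% and CCAAT in 45.5% of 33 windows, and TGACNNNGC was in 3.03%. Bub1b, a spindle checkpoint kinase, had 2.99 and 2.82 TPM against 53.3 and 68.5 TPM (−3.98 ± 0.20). Kif11, a spindle motor, had 3.80 and 4.03 TPM against 61.1 and 73.2 TPM (−3.79 ± 0.20).

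Genes of G1 and DNA replication gave 49 of 55 higher in E18, 3 higher in DDC fed and 3 not passing. Orc1, of the origin complex, had 0.607 and 0.704 TPM against 14.6 and 17.3 TPM (−3.35 ± 0.15). Cdc6, which loads the helicase, had 2.53 and 1.55 TPM against 40.3 and 56.2 TPM (−4.02 ± 0.25). E2f2, an E2F factor, had 2.13 and 2.69 TPM against 48.6 and 70.6 TPM (−4.13 ± 0.24). Ccnd1 and Cdkn1a were among the 3 exceptions. Ccnd1, cyclin D1, had 107 and 105 TPM in the DDC fed samples and 18.6 and 14.4 TPM in the E18 samples (log2 fold change 2.62 ± 0.33, adjusted p = 4.7e-04), and normal fed samples had 34.0 and 17.2 TPM. Ccnd3, another D-type cyclin, had 26.5 and 30.5 TPM against 242 and 314 TPM (−3.23 ± 0.24), so the 2 D-type cyclins differed in opposite directions. Cdkn1a, the inhibitor p21, had 107 and 86.9 TPM against 56.3 and 51.8 TPM (0.83 ± 0.20) with 3.34 and 2.79 TPM in normal fed. With each of the 4 samples left out in turn its adjusted p reached 0.12.

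Enzymes of DNA methylation and Polycomb repression were higher in E18 in 16 of 21 cases and higher in DDC fed in none (1 with median-ratio scaling), where 17.7% of all genes passed. Dnmt3b, a de novo DNA methyltransferase, had 1.35 and 2.53 TPM against 12.03 and 13.4 TPM (−2.25 ± 0.24). Dnmt1, the maintenance enzyme, had 10.4 and 9.07 TPM against 69.7 and 84.0 TPM (−2.85 ± 0.26). Ezh2, the Polycomb methyltransferase, had 12.99 and 11.2 TPM against 81.4 and 107 TPM (−2.85 ± 0.24), with 2.22 and 3.13 TPM in normal fed. Phf19, a Polycomb partner, had 0.279 and 0.505 TPM against 6.77 and 7.53 TPM (−2.55 ± 0.14). Tet1, which oxidises methylcytosine, had 0.006 and 0.0808 TPM against 1.47 and 1.71 TPM. Their levels in DDC fed were nearer to normal fed than to E18.

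Blood cell genes were higher in E18, as is known of the late fetal liver. Of 26 erythroid genes 23 were higher in E18 and 3 did not pass, and of 25 other blood lineage genes 24 and 1. Of the called ones, 4 erythroid and 6 other blood genes are listed at 0 in DDC fed. As 2 samples suffice for the filter on low values, members can pass it through E18 alone, so these counts are partly set by it. A further 21 members of the 2 lists, 10 and 11, were left out of the test for a 0 and are in no count. Over the tested members, erythroid levels summed to 550.4 and 574 TPM in DDC fed and 13540 and 24610 TPM in E18, and those of the other blood lineages to 36.6 and 42.0 TPM and 20620 and 25030 TPM. Over the whole lists, untested members included, they were 550.5 and 574 TPM and 15740 and 28430 TPM, and 39.6 and 44.5 TPM and 61610 and 73370 TPM. Hbb-bs, a beta globin, had 0.425 and 0.425 TPM against 6849 and 12465 TPM (−12.66 ± 0.33). Gata1, the erythroid master factor, has 0 listed for both DDC fed samples and had 62.1 and 93.8 TPM in E18. In bulk samples fewer cells of a type and less RNA per cell cannot be told apart. The part of these cells in the mitotic, Polycomb, splicing and ribosome results was not tested. A TPM is a share of the RNA, so blood RNA in E18 also lowers the share of hepatocyte genes there. Its part in the genes higher in DDC fed was not tested either. As values beside the mitotic results, E18 sample 1 had the higher erythroid sum and also the higher mitotic sum of the 2 E18 samples. With 2 samples, both rich in blood genes, this cannot show whether the sums go together. TPM was also rescaled without the erythroid, other blood, lymphocyte and macrophage lists, an alternative added after seeing the data. Then 2261 genes were higher in DDC fed and 7254 higher in E18, and the median of all genes was −0.67. Other RNA of blood cells stays in, and columns with more of these lists are raised more. The rescaling therefore cannot show what part blood cells had.

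**Figure D4:**
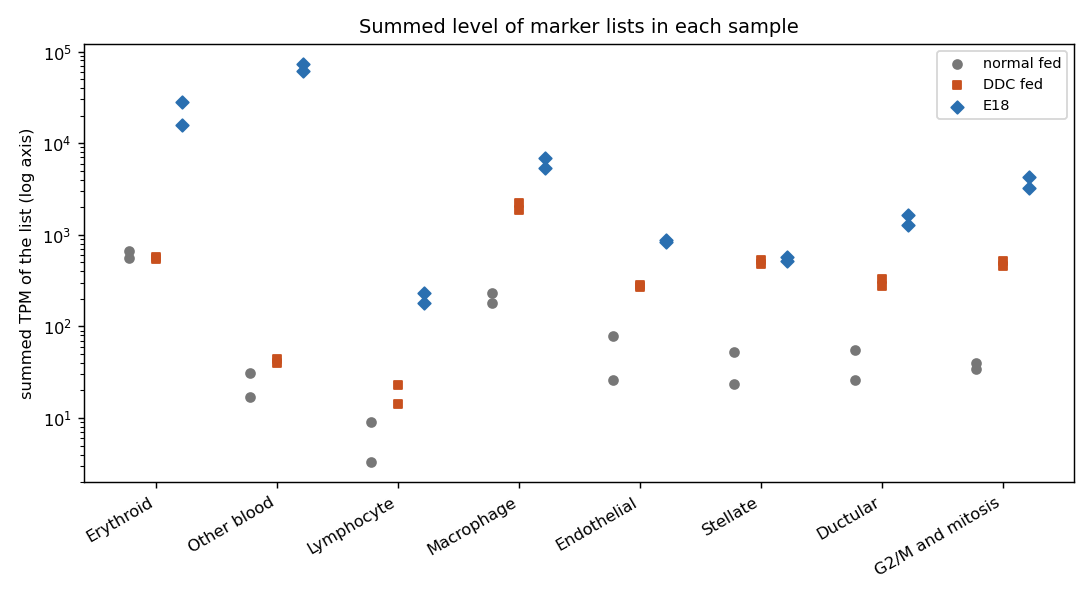
Summed TPM (log axis) of whole marker lists, members left out of the test included, for other cell types and for division in each of the 6 samples, with normal fed in grey, DDC fed in orange and E18 in blue. Erythroid and other blood sums are far higher in the 2 E18 samples (15740 and 28430 TPM of erythroid genes) than in the 2 DDC fed samples (550.5 and 574.3 TPM). Stellate sums overlap between DDC fed and E18, which depends on Dcn, and are lower in normal fed (52.4 and 23.6 TPM).

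Markers of macrophages were higher in E18 in 15 of 28 cases and higher in DDC fed in 4, with 10 to 13 and 3 to 4 when 1 of the 4 samples was left out. The counts of 15 and 4 lie near the shares of all genes, 46.9% and 17.7%. Summed levels were 1843 and 2249 TPM in DDC fed, 5401 and 6953 TPM in E18 and 234 and 180 TPM in normal fed. The 4 were Gpnmb, Vsig4, Itgax and Trem2. Gpnmb, a glycoprotein of lipid-laden macrophages, had 13.7 and 19.8 TPM against 0.132 and 0.293 TPM (3.85 ± 0.19). Vsig4, of resident Kupffer cells, had 77.4 and 83.7 TPM against 23.4 and 33.0 TPM (1.498 ± 0.22). Itgax had 2.57 and 3.495 TPM against 0.68 and 1.30 TPM. Trem2 had 10.1 and 11.9 TPM against 4.50 and 6.55 TPM, with an adjusted p for Trem2 of up to 0.062 with 1 of the 4 samples left out. Clec4f, a Kupffer cell lectin, had 154 and 176 TPM against 146 and 202 TPM (interval −0.61 to 0.48). Its sign turned with median-ratio scaling (0.446) and without DDC fed sample 0 or E18 sample 1, and it was chosen after its values were seen. Itgam, of monocytes and granulocytes, had 1.77 and 1.74 TPM against 84.9 and 97.6 TPM (−5.06 ± 0.19). Of 13 lymphocyte markers tested 11 were higher in E18. Another 13 listed were under the filter on low values, among them Cd3e, Cd8a and Ms4a1. The filter asks for 1 TPM in 2 samples, so a gene can pass it through E18 alone, and this direction is partly set by it. The tested ones summed to 12.2 and 20.4 TPM in DDC fed and 178 and 231 TPM in E18. Nkg7 of cytotoxic cells had 0.181 and 0.127 TPM against 50.8 and 60.9 TPM.

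Endothelial markers were higher in E18 in 21 of 24 cases (14 without E18 sample 1), and none passed towards DDC fed (1 with median-ratio scaling). Vwf had 0.555 and 0.317 TPM against 41.5 and 47.0 TPM (−4.98 ± 0.18), and Lyve1 of sinusoids had 3.75 and 4.35 TPM against 109.7 and 101 TPM (−4.40 ± 0.23). The summed level was 270.4 and 280.5 TPM against 829 and 868 TPM, with 79.1 and 26.0 TPM in normal fed. Stellate cell and fibroblast markers were higher in E18 in 15 of 27 and in DDC fed in 2, Timp1 and Dcn, where 46.9% and 17.7% of all genes passed. With median-ratio scaling 7 were higher in DDC fed. Their sums were 531 and 478 TPM in DDC fed, 576 and 524 TPM in E18 and 52.4 and 23.6 TPM in normal fed. Dcn alone gave 228 and 210.0 TPM of the DDC fed sums and 111 and 94.7 TPM of the E18 sums. The overlap of DDC fed and E18 sums depends on this gene. Timp1, an inhibitor of matrix proteases, had 5.98 and 8.04 TPM against 3.06 and 2.173 TPM (1.15 ± 0.20). Acta2, smooth muscle actin, had 0.16 and 0.121 TPM against 10.1 and 9.4001 TPM (−3.23 ± 0.12). Dcn, decorin, had 228 and 210.0 TPM against 111 and 94.7 TPM (1.08 ± 0.32), and its adjusted p reached 0.16 with 1 of the 4 left out.

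Duct markers were mixed, with 5 of 18 higher in DDC fed, 8 higher in E18 and 5 not passing. Elf3, Sox9, St14 and Pkhd1 were among the 5. Sox9, a duct and progenitor factor, had 12.7 and 19.8 TPM in the DDC fed samples and 2.95 and 1.84 TPM in the E18 samples (log2 fold change 2.33 ± 0.27, adjusted p = 3.5e-04), and normal fed samples had 1.73 and 1.54 TPM. Elf3, an epithelial factor, had 69.5 and 102 TPM against 5.57 and 2.07 TPM (4.24 ± 0.39). St14, a membrane protease, had 14.6 and 8.63 TPM against 2.28 and 1.19 TPM (2.19 ± 0.28). Pkhd1, the ciliary protein fibrocystin, had 1.38 and 1.18 TPM against 0.601 and 0.327 TPM, and its adjusted p was 0.056 without E18 sample 1. The defining duct keratins were low in DDC fed, with Krt7 at 0.0637 and 0.0239 TPM against 4.23 and 2.92 TPM and Krt19 as given above. Ggt1, a gamma-glutamyl transferase of ducts and fetal liver, had 1.03 and 1.02 TPM against 116 and 67.1 TPM (−5.46 ± 0.27). Without E18 sample 1 the list had 3 genes higher in DDC fed.

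The Hippo pathway and its YAP and TEAD targets restrain and drive liver growth. Counts of this list lay near the shares of all genes, 17.7% higher in DDC fed and 46.9% higher in E18. Of 39 genes, 8 were higher in DDC fed, 20 higher in E18 and 11 did not pass, and with each of the 4 samples left out in turn 3 to 4 were higher in DDC fed and 12 to 13 higher in E18. Yap1, the coactivator, had 37.8 and 37.5 TPM in the DDC fed samples and 22.5 and 15.0 TPM in the E18 samples (log2 fold change 0.99 ± 0.29, adjusted p = 0.021), and its adjusted p reached 0.17 with 1 sample left out. Ajuba, a scaffold that binds LATS kinases, had 10.5 and 12.9 TPM against 3.63 and 3.12 TPM (1.53 ± 0.22). Wwc1 had 31.3 and 34.8 TPM against 12.8 and 6.02 TPM (1.79 ± 0.36). Tgfb2 had 2.97 and 3.82 TPM against 1.19 and 1.35 TPM (0.95 ± 0.14). Higher in E18 were Tead2, a DNA-binding partner of YAP, at 1.70 and 0.873 TPM against 20.9 and 16.1 TPM (−3.11 ± 0.25), and Nf2, which activates the kinases, at 11.8 and 12.2 TPM against 29.8 and 29.6 TPM (−1.24 ± 0.23). Csnk1d, a kinase that marks YAP for breakdown, had 50.8 and 48.6 TPM against 63.3 and 65.1 TPM (−0.36 ± 0.29, interval −1.06 to 0.33). It did not pass (adjusted p = 0.31), its sign turned to 0.138 with median-ratio scaling, and it passed without either normal fed sample.

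RNA processing genes were mostly higher in E18. SR proteins bind exonic enhancers and help to set splice sites, and their kinases phosphorylate them. All 21 tested of both kinds were higher in E18, with a median of −1.31 (17 of 21 with median-ratio scaling). Srsf1, a founding member, had 72.1 and 78.1 TPM in the DDC fed samples and 324 and 353 TPM in the E18 samples (log2 fold change −2.16 ± 0.21, adjusted p = 1.5e-04), and normal fed samples had 57.1 and 44.2 TPM. Srsf3 had 50.3 and 66.2 TPM against 281 and 325 TPM (−2.37 ± 0.24). Srsf7 had 17.5 and 24.2 TPM against 98.3 and 121 TPM (−2.35 ± 0.24). Of 30 hnRNP genes 29 were higher in E18, with a median of −1.59, and 18 without E18 sample 1. Hnrnpa1, which antagonises SR proteins at many exons, had 60.1 and 59.8 TPM against 548 and 613 TPM (−3.25 ± 0.28). Of 52 core spliceosome genes 45 were higher in E18 (31 with median-ratio scaling, 22 without E18 sample 1), and Snrpf of the Sm ring had 26.0 and 24.7 TPM against 115 and 147 TPM (−2.32 ± 0.22).

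Splicing factors that differ between tissues were mixed. Of 17, 10 were higher in E18 (6 with either E18 sample left out), 2 higher in DDC fed and 5 did not pass. The 2 were Rbpms at 121 and 126 TPM against 44.2 and 35.99 TPM (1.60 ± 0.27) and Srrm4 at 8.35 and 10.03 TPM against 3.01 and 1.16 TPM (1.79 ± 0.32), and with median-ratio scaling 5 were higher in DDC fed. Esrp2, an epithelial factor of adult hepatocyte splicing, had 38.2 and 42.8 TPM against 32.0 and 21.6 TPM (0.60 ± 0.26, interval −0.01 to 1.21). It did not pass (adjusted p = 0.077) but did with median-ratio scaling (1.09, adjusted p = 0.0052) and without either normal fed sample. Normal fed samples had 44.5 and 34.1 TPM. Mbnl3 had 0.258 and 0.364 TPM against 11.6 and 11.54 TPM (−3.26 ± 0.13). Celf2 had 3.32 and 3.73 TPM against 54.1 and 54.3 TPM (−3.61 ± 0.30). Mbnl1, a repressor of fetal exons in other tissues, had 36.2 and 38.3 TPM against 144 and 161 TPM (−2.01 ± 0.26).

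Cytosolic ribosomal protein genes were higher in E18 in 73 of 79 cases, with a median of −1.46, but this count depended on the scale. It was 14 with median-ratio scaling and 19 to 38 with each of the 4 samples left out in turn. Their summed level was 45070 and 51650 TPM in DDC fed, 39900 and 77160 TPM in normal fed and 125000 and 139900 TPM in E18, out of 1000000 TPM. Rpl36a had 311 and 323 TPM against 1349.5 and 1481 TPM (−2.15 ± 0.29). Rps28 had 437 and 469.7 TPM against 1612 and 1846 TPM (−1.93 ± 0.26). Of 48 ribosome biogenesis genes 40 were higher in E18 (30 with median-ratio scaling, 19 to 31 with 1 sample left out), with Nop56, a box C/D particle protein, at 35.6 and 35.2 TPM against 201 and 217 TPM (−2.53 ± 0.19). Of 46 translation factors 27 were higher in E18, falling to 8 with median-ratio scaling and 7 to 9 with 1 sample left out. Eef2k, the kinase that slows elongation, had 8.12 and 8.64 TPM against 58.4 and 69.0 TPM (−2.78 ± 0.34). Eif6, which keeps free large subunits apart, was the factor higher in DDC fed (3 factors with median-ratio scaling), at 148 and 149 TPM against 76.3 and 79.6 TPM (0.92 ± 0.21), with an adjusted p of up to 0.063 with 1 sample left out.

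Among liver transcription factors and nuclear receptors 24 of 47 were higher in DDC fed, 7 higher in E18 and 16 did not pass. The first count was 13 to 17 with 1 of the 4 samples left out, and the second 3 to 5, or 3 with median-ratio scaling. Hnf4a, the central hepatocyte factor, had 273 and 251 TPM in the DDC fed samples and 106 and 59.0 TPM in the E18 samples (log2 fold change 1.71 ± 0.39, adjusted p = 0.0078), with 371 and 193 TPM in normal fed, and did not pass without E18 sample 1 (adjusted p = 0.094). Cebpa, which drives adult metabolism, had 212 and 228 TPM against 186 and 137 TPM (0.46 ± 0.37, adjusted p = 0.32) and passed with median-ratio scaling (adjusted p = 0.026). Nr1i3, the receptor CAR that answers foreign compounds, had 121 and 148 TPM against 9.54 and 5.78 TPM (3.99 ± 0.33). Nr0b2, the bile acid sensor's target SHP, had 43.9 and 42.0 TPM against 2.41 and 2.38 TPM (3.69 ± 0.24). Higher in E18 were Cux2 at 0.0829 and 0.298 TPM against 14.9 and 9.33 TPM (−3.44 ± 0.23) and the thyroid hormone receptor Thra at 6.58 and 7.502 TPM against 33.0 and 37.7 TPM (−2.175 ± 0.28). Nr2f1, at 0.335 and 0.315 TPM against 1.41 and 1.23 TPM (−0.81 ± 0.11), turned sign to 0.0128 under quantile normalisation.

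Heme and iron genes were mixed. Of 9 synthesis genes 7 were higher in E18, 1 higher in DDC fed and 1 did not pass. Alas1, the first enzyme of heme synthesis outside red cells, had 959 and 946 TPM in the DDC fed samples and 146 and 154 TPM in the E18 samples (log2 fold change 2.66 ± 0.56, adjusted p = 0.0054), and its adjusted p reached 0.076 with 1 of the 4 samples left out. Alas2, its red cell counterpart, had 6.22 and 5.66 TPM in the DDC fed samples and 154 and 269 TPM in the E18 samples (log2 fold change −4.88 ± 0.33, adjusted p = 2.9e-05). Fech, ferrochelatase, which DDC products inhibit, had 93.2 and 84.8 TPM against 147 and 204 TPM (−0.96 ± 0.30), with 102 and 61.8 TPM in normal fed, and did not pass with median-ratio scaling (adjusted p = 0.13) or with any of the 4 samples left out (up to 0.19). Of 19 genes of breakdown and iron 9 were higher in DDC fed and 5 in E18 (2 with median-ratio scaling). Hamp, the iron hormone hepcidin, had 7059 and 7106 TPM against 177 and 94.7 TPM (5.76 ± 0.37). Cp, the ferroxidase ceruloplasmin, had 3754 and 3030.2 TPM against 250.3 and 140.3 TPM (4.16 ± 0.40). Tfrc, the transferrin receptor of dividing and red cells, had 28.8 and 29.3 TPM against 265 and 388 TPM (−3.42 ± 0.24). Over all 28 heme genes 10 were higher in DDC fed and 12 in E18 (7 with median-ratio scaling). With 1 of the 4 samples left out 5 to 6 were higher in DDC fed and 5 to 9 in E18.

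Glucose enzymes were counted by isozyme. Of 15 liver forms and gluconeogenic enzymes 8 were higher in DDC fed and none in E18, while of 20 general forms none was higher in DDC fed (2 with median-ratio scaling) and 14 higher in E18. Over both, 8 genes were higher in DDC fed, and 13 with median-ratio scaling. Hk1, hexokinase of most other cells, had 1.58 and 1.97 TPM against 181 and 248 TPM (−6.27 ± 0.24). Pck1, the gluconeogenic carboxykinase, had 1483 and 1354 TPM against 37.4 and 16.4 TPM (5.78 ± 0.38). Slc2a3, a glucose carrier, had 0.387 and 0.187 TPM against 84.3 and 87.7 TPM (−6.08 ± 0.18). Pkm, the pyruvate kinase of fetal and blood cells, had 17.0 and 21.3 TPM in the DDC fed samples and 317 and 409 TPM in the E18 samples (log2 fold change −4.17 ± 0.30, adjusted p = 3.5e-05), and normal fed samples had 2.57 and 1.15 TPM. Pklr, the liver form, had 156 and 129 TPM against 95.5 and 110.1 TPM (0.46 ± 0.43, interval −0.57 to 1.496) and did not pass (adjusted p = 0.38), although it did with median-ratio scaling (adjusted p = 0.045) and without either normal fed sample. Hk1, Slc2a3 and Pkm are also made by blood cells, whose sums are given above.

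Lipid genes were higher in DDC fed in 22 of 51 cases (10 to 14 with 1 sample left out), with 4 higher in E18 and 25 not passing. Of 29 fatty acid and lipoprotein genes 19 were higher in DDC fed, whereas of 22 cholesterol synthesis genes 3 were higher in DDC fed (8 with median-ratio scaling) and 18 did not pass. Apoa5 had 1440.5 and 1156 TPM against 20.2 and 13.05 TPM (6.23 ± 0.28). Apoc3 had 9000 and 8292 TPM against 164 and 119 TPM (5.94 ± 0.32). Scd1, which desaturates fatty acids, had 2321 and 1789 TPM against 81.1 and 58.4 TPM (4.87 ± 0.57). Cd36, a fatty acid carrier, had 184 and 165 TPM against 52.5 and 49.0 TPM (1.76 ± 0.20) and 1.96 and 1.46 TPM in normal fed. The fatty acid binding proteins Fabp5, at 22.9 and 28.4 TPM against 1605 and 1281 TPM (−5.76 ± 0.22), and Fabp4, at 13.03 and 15.6 TPM against 108 and 157 TPM (−3.11 ± 0.35), were higher in E18. So were Lpl and Lss, which did not pass with median-ratio scaling (adjusted p = 0.12 and 0.086).

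Fatty acid oxidation gave 14 of 35 higher in DDC fed (7 to 10 with 1 sample left out), 5 higher in E18 and 16 not passing. Acaa1b, a peroxisomal thiolase, had 669 and 593 TPM against 29.2 and 25.3 TPM (4.48 ± 0.23), and the hormone Fgf21 had 11.6 and 12.99 TPM against 0.825 and 0.349 TPM (3.08 ± 0.33). The 5 higher in E18 were Cyp4a10, Cyp4a14, Cyp4a31, Cyp4a12b and Acot1. Cyp4a14 had 0.97 and 0.566 TPM against 27.6 and 24.2 TPM (−3.94 ± 0.26) and 0.156 and 0.855 TPM in normal fed, and Acot1 had 6.20 and 6.58 TPM against 24.3 and 18.6 TPM (−1.59 ± 0.27). Cyp4a31 and Cyp4a12b did not pass with median-ratio scaling, which left 3 of the 5. Nuclear subunits of oxidative phosphorylation mostly did not pass, with 8 of 75 higher in DDC fed, none higher in E18 and 67 not passing. That first count was 26 with median-ratio scaling and 0 to 2 with 1 of the 4 samples left out. Ndufa13 of complex I had 189 and 164 TPM against 84.7 and 83.6 TPM (1.05 ± 0.21), and lost the call without DDC fed sample 0 (adjusted p = 0.058).

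Genes known to differ between male and female mouse liver gave 24 of 40 higher in DDC fed and 10 higher in E18. The 15 male-biased genes that passed were all higher in DDC fed, but 4 of them are listed at 0 in E18, where a 0 can be a failed estimate, which leaves 11. Among the 11 was Mup21, a urinary protein, at 33.3 and 35.7 TPM against 0.335 and 0.205 TPM (4.81 ± 0.18) and 4661 and 4786 TPM in normal fed. The 4 listed at 0 in E18 were Mup17, Mup9, Mup7 and Mup2, at 4.47 to 27.4 TPM in the DDC fed samples. Female-biased genes were split, with 9 higher in DDC fed (1 of them listed at 0 in E18) and 10 in E18. Hao2, a peroxisomal oxidase, had 0.333 and 0.383 TPM against 79.3 and 47.4 TPM (−5.52 ± 0.26). Cyp2a4 had 1290.2 and 767 TPM against 2.06 and 0.788 TPM (8.74 ± 0.35) with 1.65 and 1.31 TPM in normal fed. As values beside this list, Xist, the RNA of the inactive X, had 0.0706 and 0.0151 TPM against 60.7 and 173 TPM and 0.0072 and 0.003 TPM in normal fed, and the Y-linked Eif2s3y had 75.1 and 74.7 TPM against 59.9 and 25.6 TPM. Both kinds of RNA were thus present in each E18 pool, whereas the DDC fed samples had Eif2s3y and almost no Xist. The 2 groups therefore differed in these sex-linked RNAs as well, and sex and group cannot be told apart here. The part of sex in the list was not tested.

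Interferon response genes lay near the shares of all genes. Of 30, 6 were higher in DDC fed, 16 higher in E18 (8 with median-ratio scaling) and 8 did not pass, with a median log2 fold change of −0.58. Of 19 antigen presentation genes 12 were higher in DDC fed and none in E18, and the 2 groups were not tested against each other. H2-K1, a class I heavy chain, had 1976 and 1615 TPM against 179.9 and 152 TPM (3.43 ± 0.35). B2m, its light chain, had 6051 and 5411 TPM against 968 and 917 TPM (2.60 ± 0.34). These 2 were chosen after their values were seen. Nlrc5, the activator of class I genes, had 6.86 and 6.41 TPM against 0.508 and 0.766 TPM (2.23 ± 0.21). Bst2, tetherin, had 949.8 and 811 TPM against 69.9 and 73.9 TPM (3.59 ± 0.21). Higher in E18, Ifit2, an interferon-induced RNA-binding protein, had 2.80 and 2.46 TPM against 10.9 and 11.8 TPM (−1.77 ± 0.16). Usp18 had 5.44 and 5.03 TPM against 12.3 and 14.6 TPM (−1.21 ± 0.18), and did not pass with quantile normalisation (−0.459, adjusted p = 0.0539). Over the 49 genes 18 were higher in DDC fed (10 to 14 with 1 sample left out) and 16 in E18 (8 with median-ratio scaling).

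Chemokines, cytokines and their receptors were higher in E18 in 19 of 35 cases and higher in DDC fed in 8. Both counts lie near the shares of all genes, 46.9% and 17.7%. Cxcl14 had 11.6 and 14.3 TPM against 0.278 and 0.0861 TPM (3.56 ± 0.16). Ccl9 had 307 and 309.9 TPM against 89.1 and 67.4 TPM (1.98 ± 0.29). Higher in E18 were Cxcr2, the neutrophil chemokine receptor, at 0.0487 and 0.0662 TPM against 25.3 and 32.2 TPM (−4.80 ± 0.17), Tnf at 1.11 and 1.49 TPM against 21.6 and 25.5 TPM (−3.41 ± 0.18), and Osm, a cytokine that matures fetal hepatocytes, at 0.323 and 0.867 TPM against 23.4 and 27.3 TPM (−4.07 ± 0.21). These 3 are made by blood cells.

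Of 18 p53 targets 6 were higher in DDC fed (10 with median-ratio scaling) and 2 in E18 (1 with median-ratio scaling). Perp, an epithelial target, had 149 and 135 TPM against 26.3 and 15.1 TPM (2.76 ± 0.28). Eda2r, a death receptor, had 7.55 and 4.31 TPM against 0.712 and 0.779 TPM (1.95 ± 0.22). Fas had 64.3 and 58.3 TPM against 25.8 and 16.8 TPM (1.51 ± 0.29). Of 24 ATF4 and chaperone genes 2 were higher in DDC fed (6 with median-ratio scaling), 6 were higher in E18 and 16 did not pass. The largest of these were enzymes and carriers of amino acid supply: Phgdh, the first enzyme of serine synthesis, had 0.132 and 0.353 TPM against 88.7 and 70.8 TPM (−6.02 ± 0.20). Psat1, the next, had 0.771 and 0.921 TPM against 245 and 168 TPM (−6.79 ± 0.24). Asns, asparagine synthetase, had 1.28 and 2.10 TPM against 124 and 119 TPM (−5.53 ± 0.22). Sds, which breaks serine down, was higher in DDC fed, as given above. Herpud1, of endoplasmic reticulum stress, had 568 and 463 TPM against 199 and 137 TPM (1.63 ± 0.27). Over all 42 genes 8 were higher in each group, and with median-ratio scaling 16 were higher in DDC fed. Without E18 sample 1 there were 5.

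**Figure D5:**
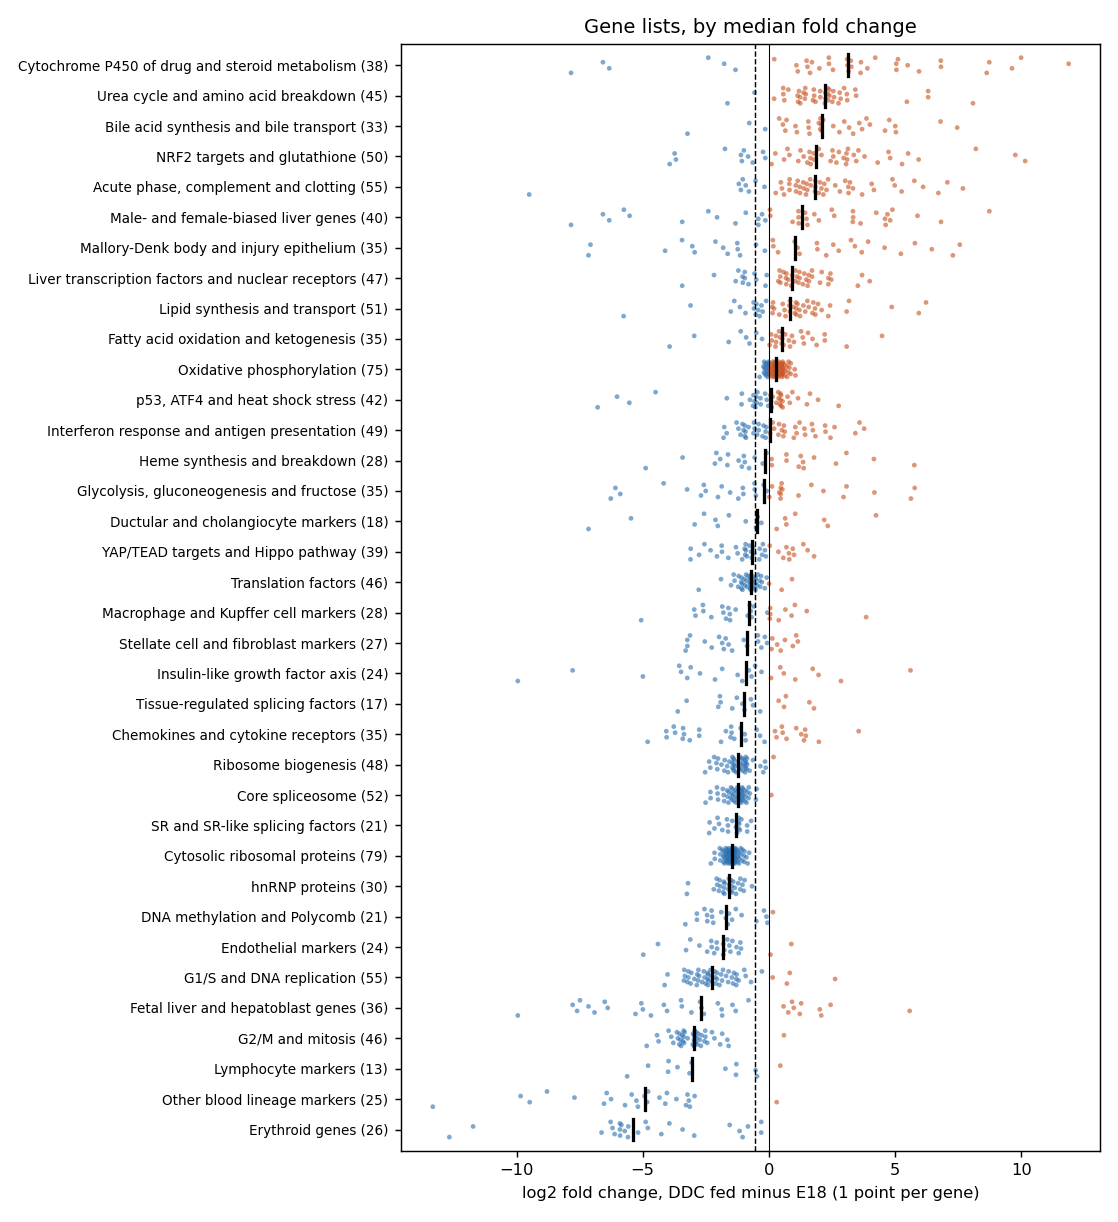
Log2 fold change of DDC fed minus E18 (horizontal) for each tested gene (1 point per gene, orange above 0 and blue below) of the 36 lists, with the number of genes tested in brackets, the list's median as a black bar and the median of all genes as a dashed line. Lists of adult metabolism such as P450 (median 3.14) lie to the right, and erythroid (−5.38), fetal (−2.70) and mitotic (−2.97) lists lie to the left of the all-gene median at −0.54.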

How the data were processed

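RNA of 6 hepatocyte samples was sequenced after selection of polyadenylated RNA. The deposited table gives 1 TPM value per gene and sample, as the authors made it, and its columns each sum to 1000000. Per the submitters' processing notes the tools named for the series were Cuffdiff 2.2.1, DESeq2, HTSeq, Picard 1.119, STAR 2.4.2a, Trimmomatic and bcl2fastq 2.17.1.14, with the builds GRCm38 and mm10. Which of them made the TPM values, and with which annotation, is not given in the sources used here. Depth is therefore unknown. The columns are numbered 0 and 1 and the labels 1 and 2, so columns were tied to groups only.

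Genes at 1 TPM or more in at least 2 samples were tested, after leaving out genes that a group lists at 0 in both its samples while another sample has 100 TPM or more. From the deposited TPM values log2(TPM + 1) was computed, with a pseudocount of 1. limma 3.58.1 (R 4.3.3) was fitted to all 6 samples with 1 mean per group, moderated variances that follow the mean, 3 residual degrees of freedom before moderation and Benjamini-Hochberg adjustment over 14235 genes, two-sided. No test of gene sets was made. Positions are from GENCODE M21 (GRCm38), which matched 48053 genes, and promoters from RefSeq. Figures were drawn with matplotlib 3.10.9.

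The lists (36, with 1426 genes) and the comparison were chosen with earlier results of these data known. Named genes are a fixed panel, the 10 highest and 10 lowest protein-coding genes by fold change (called, groups not overlapping, at 10 TPM or more in the higher group, not predicted genes, above 0 in each group), the first 8 in each direction that were also at least 8-fold above normal fed, and up to 4 members of each list by adjusted p in each direction, or all where a count is 5 or fewer. The fetal and NRF2 lists are given in full as counts. Apoa2, Asgr1, Srxn1, Ugdh, Mgst1, Cyp3a25, Spink1, Meg3, Kif11, Ccnd3, Clec4f, Lgals1, Anxa2, S100a11, H2-K1, B2m, Xist, Eif2s3y, Ctrb1 and the pairs plotted were added after their values were seen. Alternatives varied the pseudocount, filter, scaling, exon-length trend, samples, gene types, threshold, replicate block, variance prior and the genes listed at 0. Some genes that the naming rule selects are not reported here.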

Additional observations from a re-analysis of the deposited data

How the results depend on the processing

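Of 271 named genes past the threshold, 11 fell below it with median-ratio scaling and 32 in some fit that left out 1 sample. A fit that leaves out a sample assumes that the lone one left varies like the other groups. Over the 6 such fits the called genes numbered 6065 to 11130, with 1460 to 3282 higher in DDC fed and 4605 to 7848 higher in E18. The lowest values came without E18 sample 1 and the highest without a normal fed sample. Genes higher in DDC fed numbered 3915 with median-ratio scaling and 4468 with quantile normalisation, and the median of all genes moved to −0.09 and −0.01 (the cause was not tested). With a mean of at least 5 TPM, which tests fewer genes, 4250 were higher in E18. A fit of only the 4 compared samples called 11132 genes, 3285 higher in DDC fed and 7847 higher in E18. Signs turned for Csnk1d (0.138), Spp1 (0.0612), Clec4f (0.446) and Lgals1 (0.35) with median-ratio scaling, and for Nr2f1 (0.0128), S100a11 (−0.305) and Anxa2 (−0.218) with quantile normalisation. They also turned for Clec4f without single samples (−0.296 to 0.172) and Cyp7a1 without E18 sample 1 (−0.0836, and 1.19 without E18 sample 0), and the cause was not tested. A fit with the column number as a replicate block gave 2674 genes higher in DDC fed and 6750 in E18. The numbers did not pair the samples: deviations of same-numbered samples correlated at 0.0616 between DDC fed and E18, 0.225 between normal fed and DDC fed and 0.169 between normal fed and E18. Median fold change was −0.28 for the shortest 20% of genes and −0.80 for the longest, and removing that trend gave 9342 called genes against 9193. Depth is unknown, so low values have no counting interval.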

Other observations

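A bracketed value is the log2 fold change of DDC fed minus E18 with its standard error. Several genes outside the lists, chosen after their values were seen, were far apart between the groups. Higher in DDC fed were Pigr, which carries immunoglobulin A across epithelia, at 728 and 699 TPM against 1.46 and 0.776 TPM (8.42 ± 0.34), and Aldh1a1, a retinal dehydrogenase, at 1681 and 1683 TPM against 10.2 and 14.1 TPM (7.02 ± 0.24). Car3, a carbonic anhydrase, had 1177 and 1094 TPM against 13.4 and 8.48 TPM (6.60 ± 0.38). Mmp12, a macrophage elastase, had 33.9 and 43.3 TPM against 0.17 and 0.162 TPM (5.08 ± 0.18), and normal fed samples had 0.163 and 0.0218 TPM. Cldn3, a tight junction protein, had 179.6 and 183 TPM against 3.60 and 2.49 TPM (5.51 ± 0.24). Higher in E18 was Scd2, a stearoyl-CoA desaturase, at 5.33 and 6.25 TPM against 543 and 410.3 TPM (−6.12 ± 0.22), the opposite side from Scd1. Thbs1, thrombospondin, had 1.56 and 2.08 TPM against 493 and 451 TPM (−7.40 ± 0.20).

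The 2 E18 pools differed in genes of pancreas and intestine, also chosen after their values were seen. Cela2a, an elastase, had 66.7 and 5.69 TPM in E18 samples 0 and 1, Cpa1, a carboxypeptidase, had 49.4 and 4.62 TPM, Ins2, insulin, had 20.2 and 1.47 TPM, and Fabp2, the intestinal fatty acid binding protein, had 185 and 49.5 TPM. Pnliprp1, a lipase-related protein, had 139 and 10.2 TPM and is listed at 0 in the other 4 samples. E18 sample 0 was the higher pool in each of these 5.

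Among genes left out of the test, Apoa1, an apolipoprotein of high-density lipoprotein, had 10209 and 6372 TPM in E18, and Apoe, another apolipoprotein, had 7767 and 5983 TPM. Both are listed at 0 in all 4 adult samples. Fgb, a fibrinogen chain, had 2094 and 2041 TPM in DDC fed and is listed at 0 in E18.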
